A study of Mus musculus with 4 samples.

Results

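The genes described here are 51 WNT ligands, receptors and pathway components, chosen by name out of the 39179 genes counted in each library and found through their Ensembl identifiers. All 51 passed the filter on low counts and were tested. The libraries came from 4 individual chimeric mouse embryos at E7.75, the stage at which the primitive streak is active and the head begins to form. Each embryo was a host from an ARC x RLZRFP cross that had received mouse embryonic stem cells (ESCs) at a cleavage stage. In 2 embryos the ESCs carried FLAG-Lhx1, a tagged form of the LIM homeodomain factor LHX1, and in the other 2 they carried FLAG-Lhx1-mt, which the labels also call FLAG-Lhx1-Δ without saying what was altered. All recipient females drank doxycycline at 2 mg/mL with 5% sucrose for the last 24 hours, so both groups had the drug and no embryo without it was analysed here. Embryos were collected at E8.5 and were about a day delayed. Host cells remain in a chimera, and the labels give neither the share of ESC descendants in each embryo nor the promoter of the transgene or the number of ESC clones. Levels are in CPM, counts per 1000000 after scaling. Lhx1 itself had 129 and 114 CPM in FLAG-Lhx1 and 126 and 98.5 CPM in FLAG-Lhx1-mt, but transgene and host transcripts share this count, so it does not check the labels.

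WNT proteins are lipid-modified secreted signals that bind Frizzled receptors. With LRP5 or LRP6 as co-receptor they stabilise β-catenin, which enters the nucleus and works with TCF and LEF factors. With ROR or RYK receptors they act on cell shape and movement without β-catenin. In the mouse gastrula, WNT signals from the posterior epiblast and visceral endoderm are needed to form the primitive streak, and the head forms where secreted antagonists hold them down.

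Of the 51 genes, 8 differed between the groups and 7 of these were higher in FLAG-Lhx1. The ligand gene Wnt3 fell. The ligand gene Wnt6, the receptor genes Ror1, Ror2, Fzd5 and Lgr4, the agonist gene Rspo3 and the antagonist gene Sfrp1 rose. None of the 12 transducers and nuclear factors was called, and none of the 10 direct targets of β-catenin listed among the 51. Of 8 further pathway targets in the gastrula, outside the 51, T was called lower (log2 fold -0.70) and Msgn1 higher (2.16). Both of these calls depended on single embryos. The test was edgeR's quasi-likelihood F test over 15822 genes, with a call at a Benjamini-Hochberg adjusted p under 0.05. By that rule 6.17% of all tested genes were called, against 15.7% of the 51. Called higher were 2.62% of all tested genes against 13.7% of the 51, and called lower were 3.55% against 1.96%. The median log2 fold of the 51, FLAG-Lhx1 minus FLAG-Lhx1-mt, was 0.24, beside 0.01 over all tested genes. The 51 genes were chosen with earlier results of these data known, and no test was made of them as a set. With 2 embryos a group an exact permutation test of 1 gene cannot give a p under 0.333, so a call depends on the variance that edgeR estimates from the whole table.

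**Figure D1:**
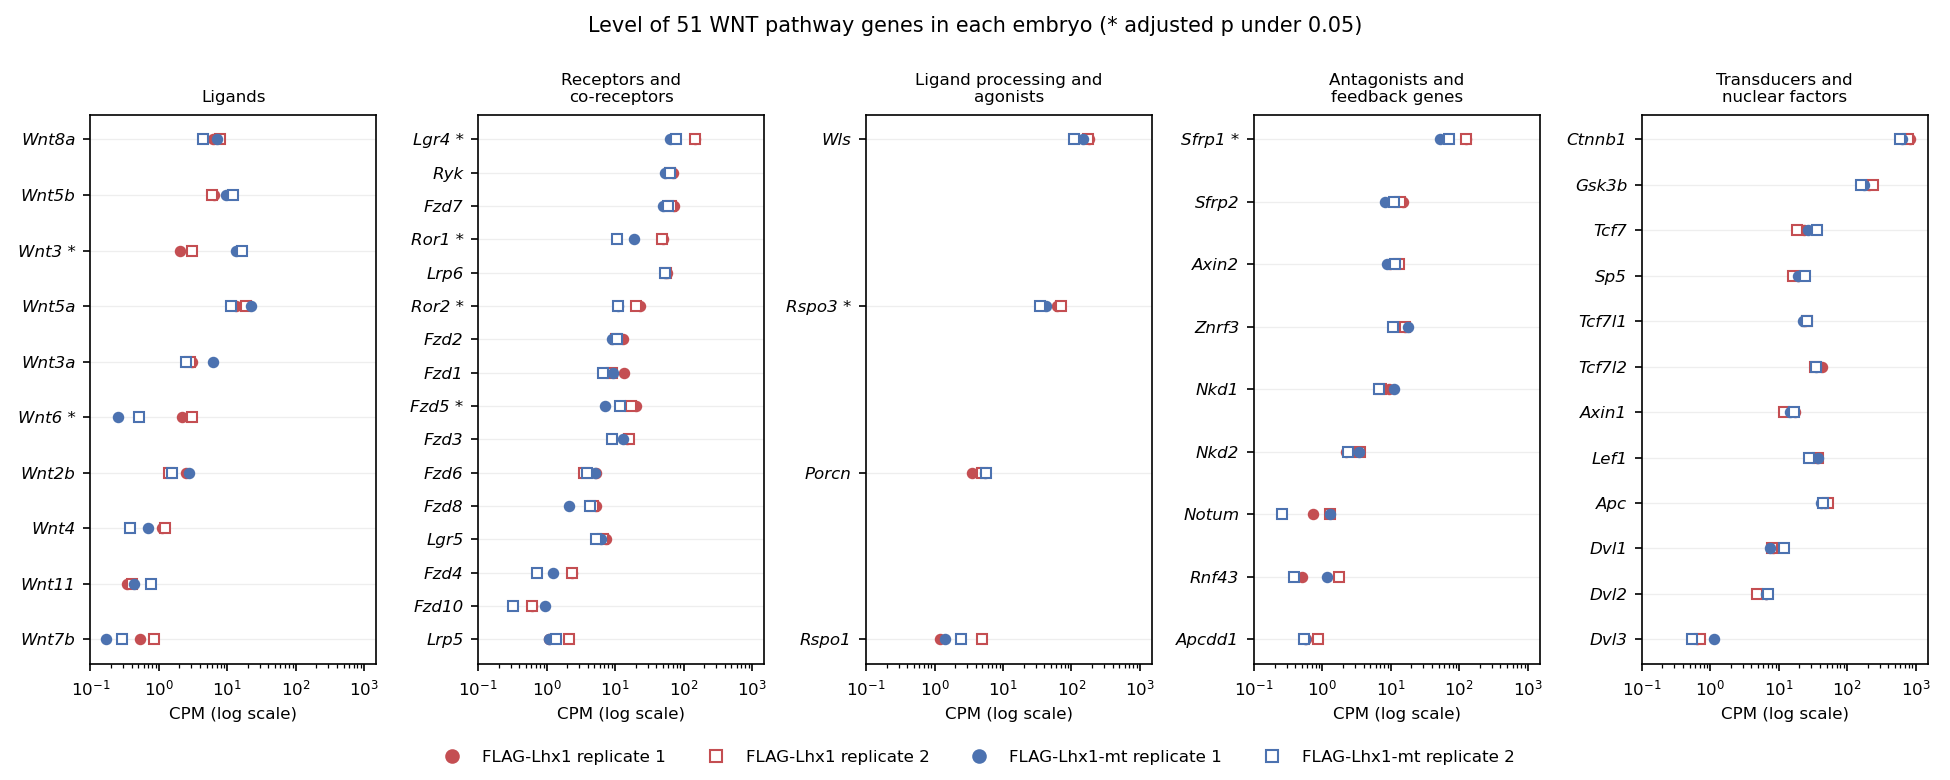
CPM on a log axis for each of the 51 genes in the 4 embryos (red, FLAG-Lhx1; blue, FLAG-Lhx1-mt; circles, replicate 1; open squares, replicate 2), ordered within each role by level per kilobase. The red and blue points of Wnt3, Wnt6, Ror1 and Lgr4 stand clearly apart, while those of Axin2, Lef1 and Nkd1 are mixed.

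The 2 groups did not overlap for 27 of the 51 genes (52.9%), and the same held for 52.2% of all tested genes. The split by direction was uneven: 21 of the 51 had both FLAG-Lhx1 embryos above both FLAG-Lhx1-mt embryos (41.2%, beside 26.4% of all tested genes) and 6 had them below (11.8%, beside 25.8%). The log2 fold was above 0 for 34 of the 51. The middle of the 51 genes by merged exon length was 4818 bases, beside 4232 bases over all tested genes, and the median fold was 0.18 after offsets for length and GC content.

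**Figure D2:**
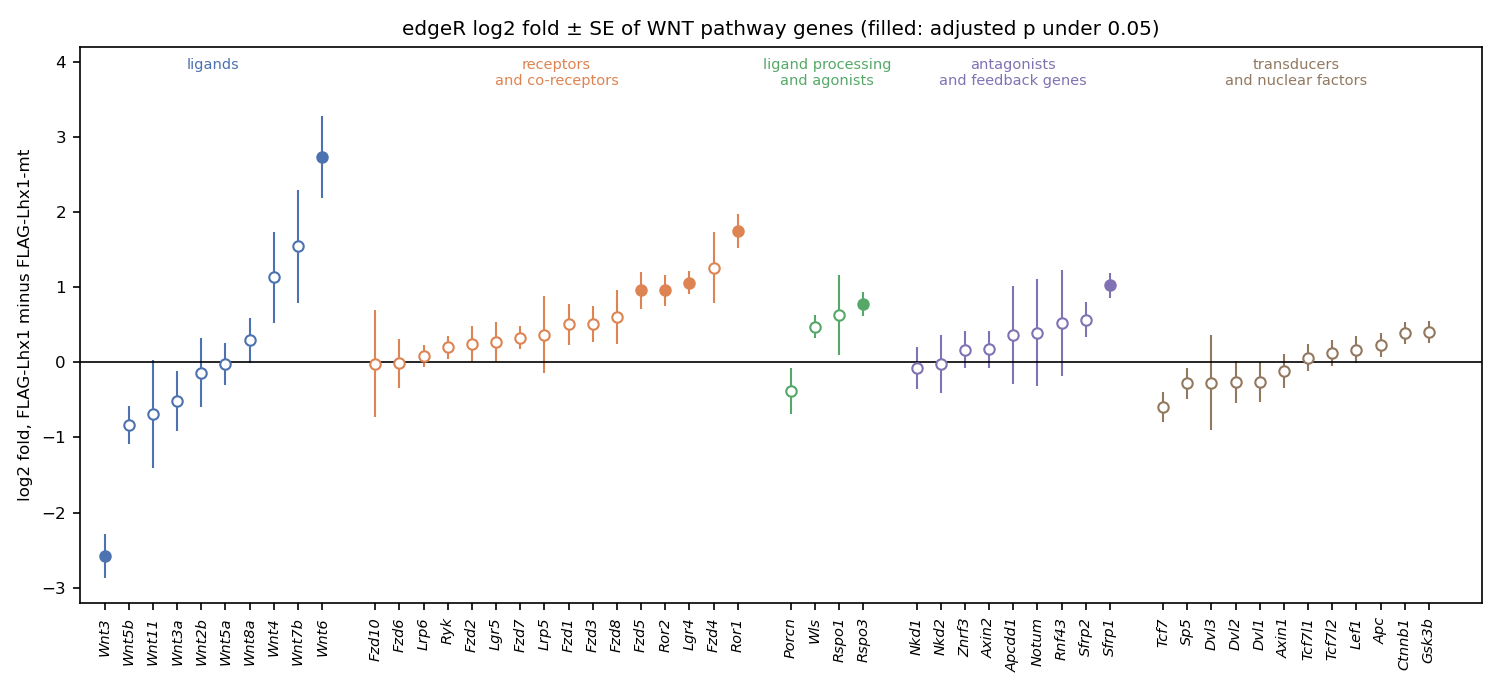
edgeR log2 fold of the 51 genes with its standard error (SE), grouped by role. Wnt3 at -2.58 and Wnt6 at 2.74 are the extremes, and 14 of 16 receptor and co-receptor genes lie above 0.

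Among the ligands, 1 of 10 rose, 1 fell and 8 were not called, with a median log2 fold of -0.08. Wnt3 encodes the ligand that the mouse embryo needs to start gastrulation. Its level was 2.02 CPM in the first FLAG-Lhx1 embryo and 3.05 CPM in the second, against 13.4 and 16.6 CPM in FLAG-Lhx1-mt. Both FLAG-Lhx1 embryos were thus far below both FLAG-Lhx1-mt embryos, with means of 2.54 ± 0.73 and 15.03 ± 2.24 CPM (SD, n = 2 each). The log2 fold was -2.58 ± 0.29 (SE, edgeR adjusted p = 9.65e-05), a level 5.98-fold higher in FLAG-Lhx1-mt. Wnt3 (ENSMUSG00000000125) lies on chromosome 11 at 103774150 to 103817957 of GRCm38. Markers of the primitive streak and nascent mesoderm moved the same way: 5 of 7 were called lower, beside 3.55% of all tested genes. The summed level of these markers was 159.7 to 186.7 CPM in FLAG-Lhx1 and 507.1 to 576.5 CPM in FLAG-Lhx1-mt. Their part in the fall of Wnt3 was not tested. In whole embryos, fewer cells of a type and less RNA per cell cannot be told apart.

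Wnt6, a ligand gene of surface ectoderm, went the other way at a low level. It had 2.21 and 3.10 CPM in FLAG-Lhx1, and 0.258 and 0.511 CPM in FLAG-Lhx1-mt. Both FLAG-Lhx1 embryos were above both FLAG-Lhx1-mt embryos, and the log2 fold was 2.74 ± 0.54 (SE, edgeR adjusted p = 0.00857). With 1 embryo left out, the log2 fold ran from 2.36 (FLAG-Lhx1-mt replicate 1 left out) to 3.33 (its replicate 2 left out). Wnt6 (ENSMUSG00000033227) lies on chromosome 1 at 74771892 to 74785322. Of 7 markers of surface and amniotic ectoderm, Tfap2a was called higher and Epcam lower, as were 2.62% and 3.55% of all tested genes. The median log2 fold of the 7 was 0.78. Tfap2a, Tfap2c, Gata2 and Gata3, transcription factor genes of this tissue, had higher values in both FLAG-Lhx1 embryos than in both FLAG-Lhx1-mt embryos. The same held for 26.4% of all tested genes. Dlx5, a further transcription factor gene on the list, overlapped between the groups (log2 fold -0.14). The summed level of the 7 markers was lower in FLAG-Lhx1, at 458.3 to 494.3 CPM against 623.7 to 636.5 CPM in FLAG-Lhx1-mt. Most of it came from the epithelial genes Krt18 and Epcam. The part of these cells in the rise of Wnt6 was not tested.

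The other ligand genes of the gastrula were not called. Wnt3a, which maintains the tail-forming progenitors, had 3.09 and 2.90 CPM in FLAG-Lhx1 and 6.10 and 2.52 CPM in FLAG-Lhx1-mt (log2 fold -0.51 ± 0.40, SE, edgeR adjusted p = 0.504). Wnt8a, another ligand gene of the posterior epiblast, had 6.14 and 7.89 CPM in FLAG-Lhx1 and 7.04 and 4.44 CPM in FLAG-Lhx1-mt. In both genes the groups overlapped, and FLAG-Lhx1-mt replicate 1 was the highest embryo for Wnt3a. Wnt5a, the main ligand of ROR receptors, had 13.6 and 19.1 CPM in FLAG-Lhx1, and 21.9 and 11.3 CPM in FLAG-Lhx1-mt. Its replicates differed more than the groups did (log2 fold -0.02 ± 0.28, SE, edgeR adjusted p = 0.982). Wnt5b, its close relative, came nearest to a call among the uncalled genes, at 6.34 and 5.90 CPM in FLAG-Lhx1 and 9.75 and 12.0 CPM in FLAG-Lhx1-mt. Its log2 fold was -0.83 ± 0.25 (SE, edgeR adjusted p = 0.0642), DESeq2 called it (adjusted p = 0.0438), and it was called without FLAG-Lhx1-mt replicate 1 (log2 fold -0.97). Wnt11, another ligand of cell movement, was near the lower end, at 0.344 and 0.407 CPM in FLAG-Lhx1 and 0.430 and 0.767 CPM in FLAG-Lhx1-mt. Wnt2b, Wnt4 and Wnt7b had group means of 0.230 to 2.18 CPM, and their log2 folds ran from -0.14 to 1.55.

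Per kilobase of exon, the scale on which genes can be set beside each other, the 10 ligand genes summed to 11.5 and 13.5 CPM per kilobase in FLAG-Lhx1 and to 18.2 and 15.8 in FLAG-Lhx1-mt. Wnt3 made up 5.73% and 7.33% of that sum in FLAG-Lhx1, and 24.0% and 34.3% in FLAG-Lhx1-mt. Wnt6 made up 8.80% and 10.5% in FLAG-Lhx1, and 0.647% and 1.48% in FLAG-Lhx1-mt. Among these 10, Wnt8a was the most abundant transcript in both FLAG-Lhx1 embryos, with 30.6% and 33.4%, and Wnt3 in both FLAG-Lhx1-mt embryos. The ligand gene Wnt2, which is not among the 51, was higher than Wnt3 in FLAG-Lhx1-mt replicate 1, at 8.095 against 4.37 CPM per kilobase. These shares are descriptions of 4 libraries and were not tested.

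**Figure D3:**
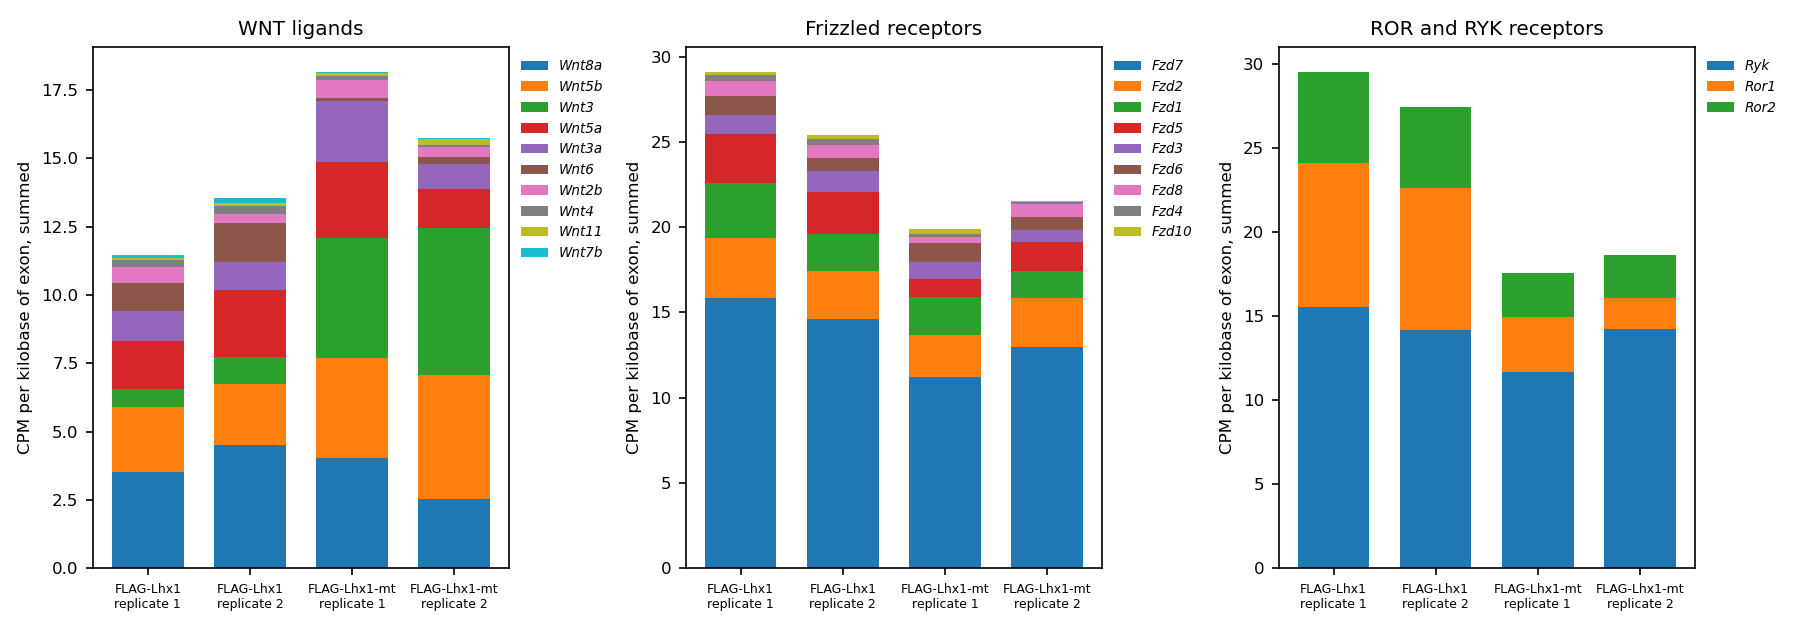
CPM per kilobase of exon, stacked by gene, for the WNT ligands, the Frizzled receptors and the ROR and RYK receptors in each embryo. Wnt3 (green, left) takes a larger part of the bars of FLAG-Lhx1-mt, Fzd7 leads the Frizzled genes in all 4 embryos, and Ror1 (orange, right) takes a larger part of the bars of FLAG-Lhx1.

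The promoter window of Wnt3 is shown because, of the 6 windows found for called genes, it was the 1 with letters of a TCF/LEF site, and that of Sp5 because it held the most such matches among the windows found. Sp5 encodes a zinc finger factor and is a direct target of β-catenin. Windows run from 250 bases before to 50 bases after the RefSeq start (GRCm38.p6, plus strand, 5′ to 3′), and capitals mark matches on either strand to any of these motifs: CTTTGAA, or else CTTTGAT, or else CTTTGTT, or else CTTTGTA. The matches shown do not overlap each other.
Wnt3, chr11:103773925-103774224: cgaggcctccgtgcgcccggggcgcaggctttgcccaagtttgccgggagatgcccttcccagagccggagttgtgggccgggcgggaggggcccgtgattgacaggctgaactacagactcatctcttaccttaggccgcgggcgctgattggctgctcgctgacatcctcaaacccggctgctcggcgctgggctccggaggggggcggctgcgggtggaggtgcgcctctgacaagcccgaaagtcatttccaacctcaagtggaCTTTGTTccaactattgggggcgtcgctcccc
Sp5, chr2:70474673-70474972: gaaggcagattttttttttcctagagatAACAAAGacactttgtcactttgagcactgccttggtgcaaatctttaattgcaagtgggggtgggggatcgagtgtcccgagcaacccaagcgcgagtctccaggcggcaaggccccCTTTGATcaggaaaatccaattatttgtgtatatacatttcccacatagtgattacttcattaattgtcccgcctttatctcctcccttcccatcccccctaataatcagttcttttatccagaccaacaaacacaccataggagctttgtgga
In Wnt3 the match began 19 bases after the start, and in Sp5 the matches began 222 and 104 bases before it. Such letters were common: 16.9% of 32851 windows of mouse genes held at least 1, and so did 7 of 43 windows (16.3%) that matched 33 of the 51 genes. The homeodomain core TAATTA was in 5.29% of all windows and in 0 of these 43. A match is not a bound site, and nothing about TCF/LEF factors or LHX1 follows from its presence or absence.

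The receptor and co-receptor genes held 4 of the 8 calls. Of 16, 4 rose (25.0%, beside 2.62% of all tested genes), 12 were not called and none fell. DESeq2, which gave an adjusted p for 15, and limma-voom called 4 each. An unadjusted p under 0.05 was found for 7 of the 16, beside 21.3% of all tested genes. Their median log2 fold was 0.44, beside 0.01 over all tested genes. In 10 of the 16 both FLAG-Lhx1 embryos exceeded both FLAG-Lhx1-mt embryos, as they did in 26.4% of all tested genes. Ror1 and Ror2 encode receptor tyrosine kinases that bind WNT5A and act without β-catenin. Ror1 had 49.3 and 48.6 CPM in FLAG-Lhx1, and 18.8 and 10.6 CPM in FLAG-Lhx1-mt. The FLAG-Lhx1 embryos were alike and high, and the FLAG-Lhx1-mt embryos differed from each other. The log2 fold was 1.75 ± 0.23 (SE, edgeR adjusted p = 0.000404), and it was 2.21 when FLAG-Lhx1-mt replicate 1 was left out and 1.38 when replicate 2 was. Ror2 had 22.9 and 20.4 CPM in FLAG-Lhx1 against 11.2 and 11.02 CPM in FLAG-Lhx1-mt. The replicates of Ror2 lay close together, and the log2 fold was 0.96 ± 0.20 (SE, edgeR adjusted p = 0.0129). Without FLAG-Lhx1 replicate 1 it was 0.87 and not called (adjusted p = 0.0853). Ryk, the gene of a further WNT receptor of this kind, was not called, at 70.5 and 64.3 CPM in FLAG-Lhx1 and 52.9 and 64.5 CPM in FLAG-Lhx1-mt. Ror1 (ENSMUSG00000035305) lies on chromosome 4 at 100095791 to 100444765 and Ror2 (ENSMUSG00000021464) on chromosome 13 at 53109312 to 53286124.

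Ryk was the most abundant of these 3 transcripts per kilobase, and its share of their sum was 52.7% and 51.7% in FLAG-Lhx1 and 66.4% and 76.2% in FLAG-Lhx1-mt. The share of Ror1 was 29.0% and 30.8% in FLAG-Lhx1 and 18.5% and 9.85% in FLAG-Lhx1-mt. Transcripts of the 2 ROR receptors thus rose while those of Wnt5a, the ligand they bind, were at similar means of 16.4 and 16.6 CPM.

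Lgr4 encodes a receptor for R-spondins, and it had the highest level per kilobase of the receptor genes. It had 146 and 149 CPM in FLAG-Lhx1, and 62.8 and 78.6 CPM in FLAG-Lhx1-mt. The FLAG-Lhx1 embryos stood at 147 ± 2.18 CPM and the FLAG-Lhx1-mt embryos at 70.7 ± 11.2 CPM (SD, n = 2 each). The difference was 1.06 ± 0.15 on the log2 scale (SE, edgeR adjusted p = 0.000968). Its relative Lgr5, which is also a target of β-catenin, had 7.29 and 6.56 CPM in FLAG-Lhx1 and 6.23 and 5.27 CPM in FLAG-Lhx1-mt and was not called (adjusted p = 0.620). Lgr4 thus made up 94.6% to 97.5% of the summed level of the 2 LGR genes per kilobase in every embryo. Lgr4 (ENSMUSG00000050199) lies on chromosome 2 at 109917647 to 110014257.

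Of 9 Frizzled genes, Fzd5 rose and none fell. Fzd5, a receptor gene needed in the yolk sac and the developing eye, had 19.9 and 17.0 CPM in FLAG-Lhx1 and 7.22 and 11.7 CPM in FLAG-Lhx1-mt. The groups did not overlap (log2 fold 0.96 ± 0.25, SE, edgeR adjusted p = 0.0339). Leaving out FLAG-Lhx1 replicate 1 ended the call (log2 fold 0.83, adjusted p = 0.137), and so did leaving out FLAG-Lhx1-mt replicate 1 (0.66, adjusted p = 0.104). Exons of other genes cover 17.8% of the exon bases of Fzd5 (ENSMUSG00000045005, chromosome 1 at 64730558 to 64737751), so some of its reads may be theirs. Fzd7, the most abundant Frizzled, had 71.9 and 66.1 CPM in FLAG-Lhx1 and 50.9 and 58.8 CPM in FLAG-Lhx1-mt. Both FLAG-Lhx1 embryos were higher, but the difference was not called (log2 fold 0.33 ± 0.15, SE, edgeR adjusted p = 0.225), and Fzd7 made up 54.5% to 60.2% of the Frizzled sum per kilobase in each embryo. Fzd1, Fzd2, Fzd3, Fzd4, Fzd6, Fzd8 and Fzd10 were not called, with log2 folds of -0.02 to 1.26 and group means of 0.611 to 15.5 CPM. Lrp6, the main co-receptor gene, was the steadiest of the receptor group, at 57.4 and 54.9 CPM in FLAG-Lhx1 and 53.1 and 53.0 CPM in FLAG-Lhx1-mt. Its log2 fold was 0.08 ± 0.15 (SE, edgeR adjusted p = 0.805) and turned to -0.12 with the length and GC offsets. Lrp5 was low, at 1.07 to 2.14 CPM.

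Among genes for making ligands available and for enhancing the signal, 1 of 4 rose and 3 were not called. Rspo3 encodes an R-spondin, a secreted agonist that binds LGR receptors and keeps Frizzled proteins on the cell surface. It had 62.1 and 70.2 CPM in FLAG-Lhx1, and 42.6 and 34.7 CPM in FLAG-Lhx1-mt. All FLAG-Lhx1 values exceeded all FLAG-Lhx1-mt values (log2 fold 0.78 ± 0.16, SE, edgeR adjusted p = 0.0119). Without FLAG-Lhx1 replicate 2 the log2 fold was 0.70 and not called (adjusted p = 0.0631). Exons of other genes cover 13.1% of Rspo3 (ENSMUSG00000019880, chromosome 10 at 29452416 to 29535867). Rspo1 was low and uneven between replicates, at 1.22 and 4.94 CPM in FLAG-Lhx1 and 1.42 and 2.46 CPM in FLAG-Lhx1-mt.

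Wls encodes the carrier that takes WNT proteins to the cell surface. It had 179 and 175 CPM in FLAG-Lhx1, and 146 and 108 CPM in FLAG-Lhx1-mt. Both FLAG-Lhx1 embryos were higher, without a call (log2 fold 0.48 ± 0.16, SE, edgeR adjusted p = 0.0893), and a call was made without FLAG-Lhx1-mt replicate 1 (0.71) and with a replicate block (0.49, adjusted p = 0.0469). Porcn, which encodes the enzyme that attaches the lipid to WNT proteins, had 3.51 and 4.99 CPM in FLAG-Lhx1 and 5.41 and 5.59 CPM in FLAG-Lhx1-mt and was not called (adjusted p = 0.520). Porcn is X-linked, and Xist differed between embryos within both groups, at 29.4 and 1.93 CPM in FLAG-Lhx1 and 2.66 and 14.5 CPM in FLAG-Lhx1-mt.

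Of 9 antagonists and feedback genes, Sfrp1 rose and 8 were not called. Sfrp1 encodes a secreted Frizzled-related protein, which binds WNT ligands outside the cell. It had 126.5 and 125.0 CPM in FLAG-Lhx1, and 52.1 and 71.2 CPM in FLAG-Lhx1-mt. The 2 FLAG-Lhx1 embryos were nearly equal and the FLAG-Lhx1-mt embryos lower (log2 fold 1.03 ± 0.16, SE, edgeR adjusted p = 0.00203). Sfrp1 (ENSMUSG00000031548, chromosome 8 at 23411502 to 23449632) had the second-highest level per kilobase of all 51 genes, after Ctnnb1. Its relative Sfrp2 had 15.2 and 13.6 CPM in FLAG-Lhx1 and 8.33 and 11.1 CPM in FLAG-Lhx1-mt, a difference that was not called (log2 fold 0.57 ± 0.23, SE, edgeR adjusted p = 0.171). The genes of the ubiquitin ligases that remove Frizzled proteins, Znrf3 and Rnf43, overlapped between the groups. So did Notum, which encodes the enzyme that strips the lipid from WNT proteins, and Nkd1 and Nkd2, whose products bind Dishevelled. Apcdd1, a membrane antagonist gene, was at 0.543 to 0.865 CPM. Exons of other genes cover 38.1% of Notum, whose level is uncertain.

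Axin2, which limits β-catenin and is the most used readout of the pathway, was not called. It had 9.69 and 13.2 CPM in FLAG-Lhx1, and 8.76 and 11.5 CPM in FLAG-Lhx1-mt. The ranges overlapped, and the log2 fold was 0.17 ± 0.25 (SE, edgeR adjusted p = 0.745). Of the other readouts, Sp5 had 19.4 and 16.3 CPM in FLAG-Lhx1 and 19.0 and 24.4 CPM in FLAG-Lhx1-mt. Lef1 had 35.8 and 37.4 CPM in FLAG-Lhx1, and 37.8 and 27.4 CPM in FLAG-Lhx1-mt. Both genes overlapped between the groups, with log2 folds of -0.28 ± 0.20 and 0.17 ± 0.18 (SE). Tcf7, which encodes TCF1, had 23.4 and 18.3 CPM in FLAG-Lhx1 and 27.1 and 36.0 CPM in FLAG-Lhx1-mt. Both FLAG-Lhx1 embryos were lower, without a call (log2 fold -0.59 ± 0.20, SE, edgeR adjusted p = 0.0942), and Tcf7 was called without FLAG-Lhx1-mt replicate 1 (-0.78) and with no count filter (-0.66). Of the 10 direct targets (Axin2, Lef1, Tcf7, Sp5, Nkd1, Notum, Znrf3, Rnf43, Lgr5 and Apcdd1) edgeR and limma-voom called 0, and DESeq2 called 0 of the 7 for which it gave an adjusted p (Apcdd1, Notum and Rnf43 had none). An unadjusted p under 0.05 was found for 1 of the 10, beside 21.3% of all tested genes. Their log2 folds ran from -0.59 to 0.53 with a median of 0.17. Both FLAG-Lhx1 embryos were above both FLAG-Lhx1-mt embryos for 2 of the 10 (26.4% of all tested genes) and below for 1 (25.8%). The SE was 0.65 for Apcdd1 and 0.71 for Notum and Rnf43, so a change could be missed more easily in these low genes than in Axin2.

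The genes that pass the signal from receptor to nucleus were not called. Of 12, edgeR and limma-voom called 0, and DESeq2 called 0 of the 11 for which it gave an adjusted p (Dvl3 had none). An unadjusted p under 0.05 was found for 3 of the 12, close to the share over all tested genes. Ctnnb1, which encodes β-catenin and was the most abundant of the 51 per kilobase, had 821 and 772 CPM in FLAG-Lhx1 and 626 and 586 CPM in FLAG-Lhx1-mt. Gsk3b, which encodes the kinase that marks β-catenin for destruction, had 209 and 235 CPM in FLAG-Lhx1 and 176.5 and 158.5 CPM in FLAG-Lhx1-mt. Both genes were higher in both FLAG-Lhx1 embryos, by log2 folds of 0.40 ± 0.14 and 0.41 ± 0.14 (SE) that did not pass (edgeR adjusted p = 0.124 and 0.110). Apc and Axin1, the scaffold genes of the destruction complex, had log2 folds of 0.23 and -0.11. The Dishevelled genes Dvl1, Dvl2 and Dvl3, whose products carry the signal from Frizzled, had log2 folds of -0.26, -0.27 and -0.27. Tcf7l1, which encodes the repressor TCF3, had a log2 fold of 0.06, and Tcf7l2 one of 0.12. The summed level of the 4 TCF and LEF genes was 24.2 and 21.7 CPM per kilobase in FLAG-Lhx1 and 24.4 and 27.5 in FLAG-Lhx1-mt.

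**Figure D4:**
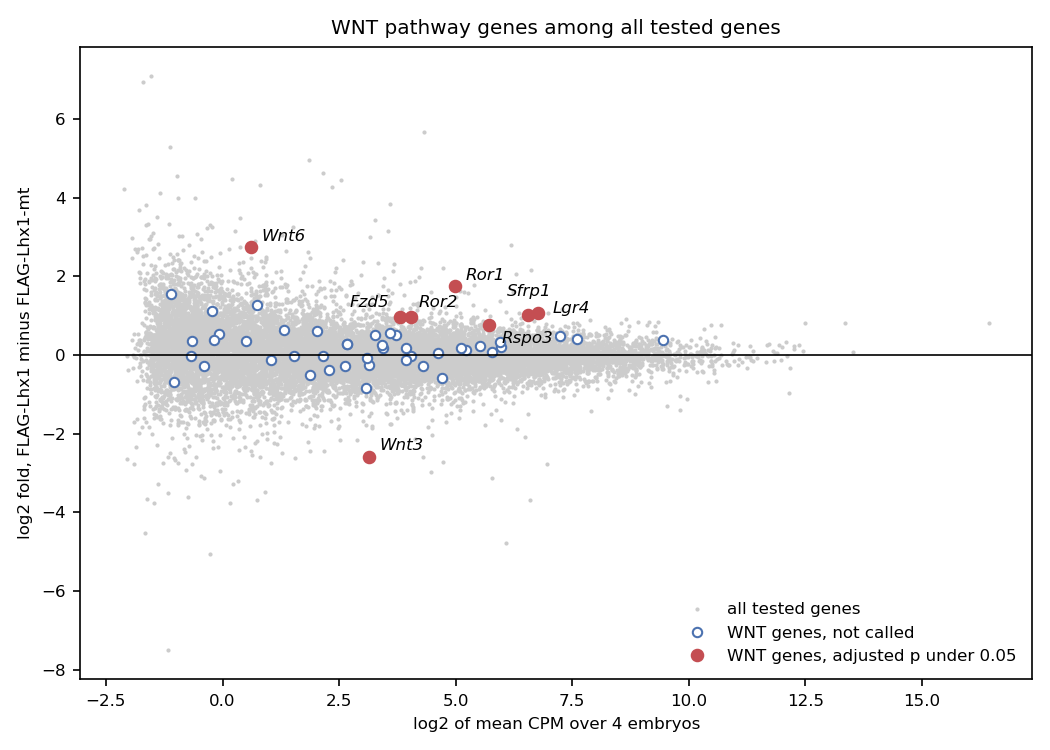
log2 fold (FLAG-Lhx1 minus FLAG-Lhx1-mt) against the log2 of mean CPM for 15822 tested genes (grey), with the 51 WNT genes on top (filled red, called; open blue, not called). Most called WNT genes are in the middle or upper range of expression, and Wnt6 is the low one.

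Of 99 further genes of the pathway on lists written down for this comparison, 85 passed the count filter. Of these, 5 were called higher and 5 lower (11.8%, beside 6.17% of all tested genes). Their median log2 fold was 0.07, beside 0.01 over all tested genes. Among other ligands, Wnt2, a ligand gene of extraembryonic mesoderm, fell from 18.2 and 8.499 CPM in FLAG-Lhx1-mt to 4.27 and 5.34 CPM in FLAG-Lhx1 (log2 fold -1.47 ± 0.33, SE, edgeR adjusted p = 0.0153). Without FLAG-Lhx1-mt replicate 1 it was -0.83 and not called. Of 12 tested genes on the antagonist list, Shisa2, which holds Frizzled receptors inside the cell, rose (log2 fold 1.64). The secreted antagonist genes Dkk1 (-0.71) and Cer1 (-0.72) fell. Shisa2 had 55.3 and 48.0 CPM in FLAG-Lhx1 against 14.2 and 18.9 CPM in FLAG-Lhx1-mt. Dkk1 was not called without FLAG-Lhx1 replicate 1 (-0.77) or replicate 2 (-0.64). The call of Cer1 ended when replicate 2 of either FLAG-Lhx1 (-0.45) or FLAG-Lhx1-mt (-0.58) was left out and with the length and GC offsets (-0.60). Secreted or membrane antagonist genes thus moved in both directions, with Sfrp1 and Shisa2 higher and Dkk1 lower.

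Of 15 nuclear cofactor genes, the corepressor gene Tle1 (log2 fold 0.85) and Sp8, a relative of Sp5 (0.75), rose. That was 13.3% called, beside 6.17% of all tested genes. Of 22 tested cytoplasmic components, the casein kinase gene Csnk1g3 rose (0.54), and of 14 tested genes of planar cell polarity Prickle1 fell (-0.64). The shares called in these lists, 4.55% and 7.14%, were near the 6.17% over all tested genes. Of 8 targets in the gastrula, 25.0% were called. T fell (-0.70) and Msgn1, a gene of presomitic mesoderm, rose (2.16) from 0.430 and 0.383 CPM to 1.53 and 2.14 CPM. Each of these 6 calls depended on single embryos. Without FLAG-Lhx1 replicate 1, Tle1 (0.79), Csnk1g3 (0.44) and Msgn1 (2.38) were not called. Without FLAG-Lhx1 replicate 2, Csnk1g3 (0.64), Prickle1 (-0.46), T (-0.50) and Msgn1 (1.91) were not called. Without FLAG-Lhx1-mt replicate 1 the uncalled genes were Prickle1 (-0.56), T (-0.32) and Msgn1 (2.23), and without FLAG-Lhx1-mt replicate 2 they were Sp8 (0.52), Csnk1g3 (0.50) and Msgn1 (2.07). Upper-quartile scaling also ended the calls of T (-0.64) and Prickle1 (-0.59), the length and GC offsets those of T (-0.52) and Csnk1g3 (0.46), and the lack of a count filter that of Csnk1g3 (0.48). Of 8 other receptor genes edgeR and limma-voom called 0, and DESeq2 called 0 of the 5 with an adjusted p. An unadjusted edgeR p under 0.05 was found for 1, Ptk7 (log2 fold -0.63), beside 21.3% of all tested genes. Neither Rspo2 nor Rspo4 passed the count filter.

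Markers of several cell types moved with the groups, and their part in the results above was not tested. Over all tested genes 2.62% were called higher and 3.55% lower, and 21.3% had an unadjusted edgeR p under 0.05. Epiblast markers were lower in FLAG-Lhx1, with 6 of 7 called and summed levels of 351.5 to 476.2 CPM against 775.1 to 1164 CPM in FLAG-Lhx1-mt. Paraxial mesoderm markers were higher, with 6 of 8 called and 105.1 to 126.5 CPM against 19.9 to 35.8 CPM. Anterior neural plate markers were also higher, with 6 of 8 called and 148.6 to 161.0 CPM against 17.8 to 28.3 CPM, and Fezf2 was at 0 in both FLAG-Lhx1-mt embryos. Markers of visceral and yolk sac endoderm were lower, with 5 of 9 called and 1754 to 2004 CPM against 3015 to 3554 CPM. For definitive endoderm, 3 of 5 were called lower (227.4 to 287.6 CPM against 590.2 to 594.9 CPM), of which Cer1 is also on the antagonist list. The other lists showed fewer calls. In caudal epiblast 1 of 5 was called higher (73.3 to 99.0 CPM against 15.2 to 48.8 CPM). In extraembryonic mesoderm 1 of 6, Ahnak, was called higher, and the summed levels overlapped (40.4 to 48.0 CPM against 31.9 to 41.5 CPM). The median log2 fold of that list was -0.03, with 3 of the 6 above 0. In trophoblast 2 of 7 tested, Rhox5 and Eomes, were called lower, and Eomes is also a streak gene. The summed level was 112.7 to 134.5 CPM against 228.7 to 332.0 CPM, most of it from these 2 genes. The median log2 fold of this list was 0.16, with 4 of the 7 above 0. Tpbpa was at 0 in both FLAG-Lhx1 embryos. For blood and endothelium edgeR and limma-voom called 0 of 6 tested and DESeq2 0 of the 4 with an adjusted p (1 with an unadjusted p under 0.05; 32.9 to 33.8 CPM against 33.4 to 37.5 CPM), and Hbb-bh1 and Hba-x were each at 0 in some embryos. For maternal decidua all 3 tools called 0 of 5 tested (2 with an unadjusted p under 0.05; 12.2 to 15.5 CPM against 10.4 to 10.6 CPM).

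**Figure D5:**
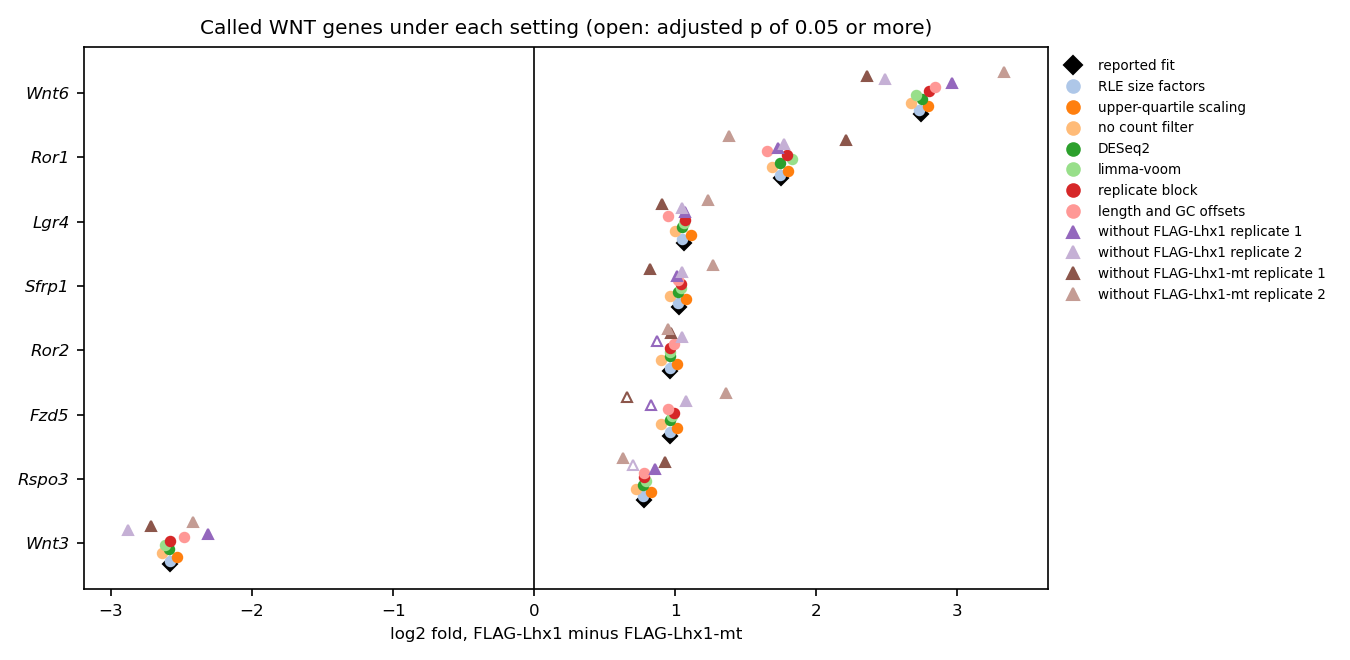
log2 fold of the 8 called genes in the reported fit (black diamonds), under 7 other settings (circles) and with each embryo left out in turn (triangles); open symbols missed the threshold. Open symbols occur for Fzd5, Ror2 and Rspo3 only, and no symbol crosses 0.

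Across the settings, the 8 calls were kept under each of the 7 other normalizations, filters, tests and models. With 1 embryo left out, 6 to 8 of the 8 were called. Wnt3, Wnt6, Ror1, Lgr4 and Sfrp1 were called in all 4 of these fits, in which the lone embryo of a group is assumed to vary like those of the other. The log2 fold of Wnt3 ran from -2.88 to -2.31 in them, that of Lgr4 from 0.91 to 1.23 and that of Sfrp1 from 0.82 to 1.27.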

How the data were processed

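Gene counts from 4 embryos were analysed. The authors deposited unnormalized whole-number read counts for Ensembl genes, per the file headers. STAR, featureCounts of Subread and the builds GRCm38 and mm10 are named in the submitters' processing notes; versions, the annotation release and any use of strand in counting are absent from them, so overlapping genes cannot be told apart. Exons of other genes cover part of 14 of the 51 genes, and over 20% of 1, Notum. Per the labels' protocols, Geo-seq libraries were made with 10 cycles of pre-amplification from single embryos and read as 100 bp paired ends. They carry no molecular identifiers, so read counts are not independent molecules. Total counts were 21267116 to 30434442, so 3 counts are 0.0959 to 0.153 CPM (counting error only).

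Symbols, positions and merged exon lengths came from GENCODE vM21 (96.2% of IDs matched). Genes passing filterByExpr (minimum count 10, total 15) were tested with edgeR 4.0.16 in R 4.3.3 (TMM, estimateDisp, glmQLFit, glmQLFTest, group only; Benjamini-Hochberg adjustment over all tested genes); the SE is the log2 fold's size over the square root of F. CPM are per 1000000 TMM-scaled counts. The biological coefficient of variation was 18.2%, and the replicates' log2 CPM correlated across genes at 0.982 and 0.978. The counts of replicates differed by more than sampling noise (chi-square per degree of freedom 49.0 and 31.6), so each embryo is 1 replicate. Alternatives were RLE and upper-quartile scaling, no filter, DESeq2 1.42.0, limma-voom (limma 3.58.1), a replicate block, offsets for length and GC content (mgcv), and each embryo left out. In a simulation over 15816 genes, the fit called 64 of 100 genes given a true log2 change of 1 and 87 of 100 given 2. It called 6 of 15616 given none (changed genes excluded the lowest counts). Counts were drawn from the variance trend that edgeR estimated here, so these results do not cover genes that depart from that trend. Fewer genes were changed in the simulation than the 976 called in the data. The adjustment depends on that number, so the recovered shares need not hold for the data. DESeq2 gave an adjusted p for 43 of the 51 genes.

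Members, roles, pathway lists and 12 marker lists were chosen with earlier results of these data known. Values per embryo are given for called members, for a fixed set of 13 members and for the most abundant member of each role. They are also given for Wnt5b and Wls, the uncalled members with the smallest p. Other pathway genes are named where called, plus 1 for a tested list without a call. Values per embryo of Ryk, Lgr5, Porcn, Rspo1, Sfrp2 and Gsk3b were added after they were seen, to stand beside related genes.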

Additional observations from a re-analysis of the deposited data

How the results depend on the processing

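All 8 calls were kept under RLE and upper-quartile scaling, no count filter, DESeq2, limma-voom, the replicate block and the length and GC offsets. Without a count filter 952 genes were called lower, and 3 of the 51 instead of 1 (Wnt5b and Tcf7 were added); DESeq2 called 2 of the 51 lower. Upper-quartile scaling turned the split of all calls to 54.4% higher, from 42.5%, and no filter to 34.2%; the median log2 fold of the genes tested was -0.05 to 0.06 across settings. The labels do not say that a replicate number marks a shared litter or day, and deviations of same-numbered embryos correlated at 0.0156; with the replicate block 1138 genes were called, and Wls was added to the 8.

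Leaving out 1 embryo, the calls over all genes ran from 551 to 1135 (976 with all 4), those higher from 254 to 597 and those lower from 291 to 627; of the 51 genes 1 to 3 were lower, and of the further pathway genes 4 to 8 were called. The fewest calls, 608 and 551, came without FLAG-Lhx1 replicates 1 and 2. The median log2 fold of the 51 ran from 0.16 to 0.33. Medians that changed sign ran from -0.31 to 0.43 (ligands), -0.06 to 0.66 (processing and agonists), -0.09 to 0.48 (antagonists and feedback), -0.14 to 0.09 (transducers) and -0.09 to 0.39 (direct targets).

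Some uncalled genes changed sign between fits. Not all of them were near 0 in the reported fit: Rspo1 was at 0.63, Rnf43 at 0.53 and Wnt3a at -0.51. Under upper-quartile scaling the log2 fold was 0.04 for Fzd10, Fzd6, Nkd2 and Wnt5a each. Under limma-voom it was 0.24 for Fzd10, 0.01 for Fzd6 and 0.06 for Wnt5a. Under the replicate block it was 0.09 for Fzd10 and 0.03 for Wnt5a, and under the length and GC offsets 0.07 for Fzd10 and -0.12 for Lrp6. With 1 embryo left out, ranges that crossed 0 were -0.37 to 0.28 for Nkd2, -0.08 to 0.30 for Tcf7l2, -0.43 to 0.54 for Wnt5a, -0.40 to 0.13 for Axin1, -0.05 to 0.38 for Axin2, -0.34 to 0.25 for Fzd6, -0.19 to 0.79 for Lrp5 and -0.39 to 0.31 for Nkd1. They were -0.38 to 1.93 for Notum, -0.59 to 1.5 for Rnf43, -0.66 to 1.33 for Rspo1, -0.61 to 0.33 for Wnt2b, -0.71 to 0.32 for Dvl3, -0.63 to 0.92 for Fzd10, -0.04 to 0.18 for Tcf7l1, -1.02 to 0.25 for Wnt3a, -0.55 to 0.10 for Dvl1, -0.05 to 0.42 for Lef1, -0.01 to 0.65 for Wnt8a and -0.17 to 0.60 for Znrf3. The cause was not tested. For 8 of the 51 genes the mean level was under 1 CPM, and the SE of these genes reached 0.75.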
